A study of Mus musculus with 6 samples.

Results

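The prostaglandin genes described here are 9 of the 19087 genes in a table of kidney messenger RNA, picked by gene symbol: the cyclooxygenase genes Ptgs1 and Ptgs2, the terminal synthase genes Ptges, Ptges2 and Ptgds, the degrading enzyme gene Hpgd, and the prostaglandin E2 receptor genes Ptger1, Ptger3 and Ptger4. All 9 symbols were present, each in 1 row, and all 9 passed the filter on low counts, Ptgs2 through the cisplatin libraries alone. The groups were kidneys of wild-type mice treated with cisplatin (3 samples) and control kidneys of wild-type mice (3 samples). Cisplatin is a platinum chemotherapy drug that damages DNA and is toxic to kidney tubules; it was injected intraperitoneally. The study sought molecules by which a high-fat diet sensitizes mice to acute kidney injury; the sources used here give no diet, sex, age, strain, dose or time after injection for these samples. Whether every sample was a separate animal is not labelled, and p-values therefore reflect only sample-to-sample spread, part of which may be technical.

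Prostaglandins are local lipid signals made from arachidonic acid that phospholipases release from membranes. Cyclooxygenases turn it into an unstable intermediate, and terminal synthases turn that into prostaglandin E2, D2, F2-alpha, prostacyclin or thromboxane, which act on G protein-coupled receptors of nearby cells before they are taken up and oxidized. In the kidney, prostaglandin E2 is the main product; it helps keep blood flow and adjusts salt and water reabsorption, and drugs that block cyclooxygenases can lower kidney function when flow is poor.

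The promoter windows of Ptgs2, Ptges, Ptger4 and Hpgd are shown because these genes passed the test in the direction given below. They run from 250 bases before to 30 bases after an annotated start, 5′ to 3′ on the gene's strand. They come from RefSeq on GRCm38.p6, which held a window for 8 of the 9 genes. For Ptgs2, Ptger4 and Hpgd that start is the upstream end of the gene. For Ptges it is an internal start, well within the annotated gene (30889471 to 30931020). Capitals mark matches, on either strand, to the letters of a TATA box (TATAAA), an E-box (CACGTG), a cyclic AMP response core (TGACG), an NF-kappa-B-type site (GGG and CC with any 5 bases between), an AP-1 site (TGANTCA) or a GC box (GGGCGG); adjoining capitals can belong to overlapping matches.
Ptgs2, chr1:150099781-150100060, plus strand: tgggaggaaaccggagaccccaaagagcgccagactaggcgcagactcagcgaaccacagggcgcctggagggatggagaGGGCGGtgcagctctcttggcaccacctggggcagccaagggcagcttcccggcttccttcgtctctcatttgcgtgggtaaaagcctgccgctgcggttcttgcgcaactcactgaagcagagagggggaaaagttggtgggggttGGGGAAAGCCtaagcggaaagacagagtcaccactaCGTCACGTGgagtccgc
Ptges, chr2:30903268-30903547, minus strand: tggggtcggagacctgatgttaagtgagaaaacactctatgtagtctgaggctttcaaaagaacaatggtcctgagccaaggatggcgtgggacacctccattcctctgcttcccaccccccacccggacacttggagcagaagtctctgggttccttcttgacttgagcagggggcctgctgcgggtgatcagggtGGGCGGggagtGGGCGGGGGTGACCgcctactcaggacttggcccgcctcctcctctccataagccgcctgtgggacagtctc
Ptger4, chr15:5244158-5244437, minus strand: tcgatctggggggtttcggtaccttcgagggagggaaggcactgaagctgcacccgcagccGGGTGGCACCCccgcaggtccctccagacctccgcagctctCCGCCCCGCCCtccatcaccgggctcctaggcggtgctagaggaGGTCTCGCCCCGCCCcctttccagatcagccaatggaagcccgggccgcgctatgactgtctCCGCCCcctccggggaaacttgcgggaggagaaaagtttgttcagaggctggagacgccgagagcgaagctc
Hpgd, chr8:56294302-56294581, plus strand: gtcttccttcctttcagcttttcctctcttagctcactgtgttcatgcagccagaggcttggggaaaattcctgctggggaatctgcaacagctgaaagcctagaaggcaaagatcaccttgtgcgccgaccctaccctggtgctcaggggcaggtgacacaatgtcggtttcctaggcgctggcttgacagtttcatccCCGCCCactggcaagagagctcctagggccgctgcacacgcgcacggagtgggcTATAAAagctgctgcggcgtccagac
The Ptgs2 window held the cyclic AMP response core at position 14 after the annotated start that overlapped an E-box at position 17. Positions count from the annotated start, whose first base is 1, and no start of transcription was measured. Among 18800 windows of genes in the table, 24.7% held that core and 8.1% the E-box. The windows of Ptgs2, Ptges and Ptger4 each held the NF-kappa-B-type letters, which 59.5% of all windows held, and that of Hpgd did not. A GC box was in all 4 windows and in 50.3% of all windows, and the TATA box letters in that of Hpgd, at position 5 after the start, against 9.5% of all windows. Such matches describe the letters and say nothing about binding.

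Of the 9 genes, 3 were higher in cisplatin-treated than in control kidneys (Ptgs2, Ptges and Ptger4), 2 were lower (Hpgd and Ptger1) and 4 did not pass the test (Ptgs1, Ptges2, Ptgds and Ptger3) (quasi-likelihood test of edgeR, adjusted p threshold 0.05). Their median log2 fold change was -0.21, against 0.01 over all 14392 genes tested. Of all genes tested, 45.4% were called, 23.1% higher and 22.2% lower, so 5 of 9 is close to the share among all genes. With library size as the only scaling, the median log2 fold change over all genes was 0.14 instead of 0.01, and 67.0% of called genes were higher, against 51.0% with TMM factors; limma on FPKM gave 66.2%. The same 5 prostaglandin genes were called in the same directions. In the same 5 genes the cisplatin and control libraries did not overlap, as in 57.6% of all genes tested. The remaining 4 overlapped.

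**Figure D1:**
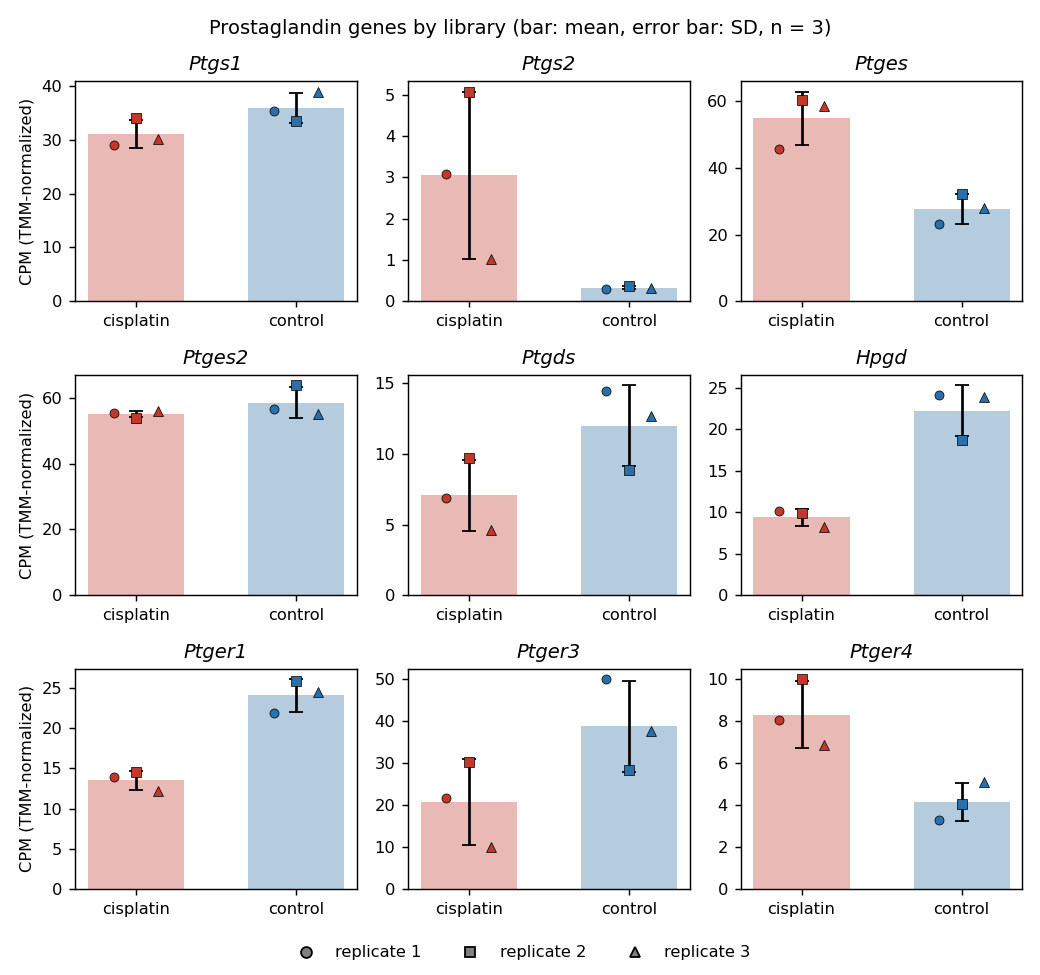
CPM of the 9 prostaglandin genes in each library (cisplatin left, control right; points are libraries, bars the mean of 3, error bars the SD). All 3 cisplatin libraries lie above all controls for Ptgs2, Ptges and Ptger4 and below them for Hpgd and Ptger1.

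The libraries were of similar depth, with totals of 17776018 to 18523666 estimated counts in cisplatin and 16725665 to 17351755 in control. Injury differed among the cisplatin libraries: Havcr1, the tubule injury marker, had 1060, 1449 and 420 CPM (TMM-normalized count rate per library size) in cisplatin replicates 1 to 3, against 2.14 to 3.23 CPM in the controls. Markers of the kidney's tubule segments were present in every library, and the summed level did not overlap between groups except for the collecting duct intercalated cells, at 338 to 434 CPM in cisplatin and 344 to 398 CPM in control. Proximal tubule markers summed to 3201 to 6638 CPM in cisplatin and to 16646 to 17016 CPM in control, and markers of the thick ascending limb and macula densa to 1633 to 3327 CPM and to 6811 to 8504 CPM. In such bulk samples, fewer cells of a type and less RNA per cell cannot be told apart.

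Of the 2 cyclooxygenase genes, the inducible one rose strongly from a very low level and the constitutive one did not pass the test. Ptgs2, which encodes cyclooxygenase-2 (Entrez 19225, chromosome 1, 150100031 to 150108234), had 61, 100 and 18 estimated counts in cisplatin replicates 1 to 3, against 5, 6 and 5 in control replicates 1 to 3. That was 3.08, 5.07 and 1.01 CPM in cisplatin and 0.31, 0.37 and 0.31 CPM in control. Every cisplatin library lay above every control, and the cisplatin libraries themselves ranged widely, with replicate 3 lowest. The log2 fold change was 3.20 (SE 0.65; edgeR adjusted p = 0.00541), or 3.60 without cisplatin replicate 3 and 2.63 without cisplatin replicate 2. With so few counts the size depends on the scale: limma on the authors' FPKM gave 2.06 with 0.1 and 0.65 with 1 added before the logarithm. The order of the cisplatin libraries in Ptgs2 was that of Havcr1, with replicate 2 highest and replicate 3 lowest. Ptgds, Ptger1, Ptger3 and Ptger4 had the same order, whether higher, lower or not called, so it is not particular to Ptgs2.

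In the normal kidney, Ptgs2 is known from the macula densa, whose cells also express Nos1, and from interstitial cells of the medulla. Nos1 was lower in cisplatin, at 0.25 to 0.34 CPM against 0.92 to 1.90 CPM in control (log2 fold change -2.20; edgeR adjusted p = 0.00320). Tmem158, of the same marker list, was higher, averaging 7.47 ± 1.68 CPM in cisplatin and 1.89 ± 0.61 CPM in control (1.98; adjusted p = 0.000679). Interstitial fibroblast and pericyte markers summed to 549 to 868 CPM in cisplatin and 464 to 558 CPM in control, and 4 of 10 were called higher, none lower; without cisplatin replicate 1 or without control replicate 2 only 2 of them were called. Among neutrophil markers, S100a8 had 0.71 to 1.13 CPM in cisplatin and at most 0.37 CPM in control and Camp no count in any, and the whole list summed to 10.9 to 13.3 CPM in cisplatin and 7.996 to 10.8 CPM in control, with 3 of 5 tested markers higher, and 1 called without cisplatin replicate 1. Macrophage and monocyte markers summed to 255 to 295 CPM in cisplatin and 200 to 246 CPM in control, with 2 of 10 higher and 3 lower. Cd68, among the 2 higher, averaged 78.0 CPM in cisplatin and 9.47 CPM in control, a larger rise than that of the whole sum. Csf1r, among the 3 lower, averaged 46.8 CPM in cisplatin and 80.4 CPM in control. Without cisplatin replicate 1, 3 of the macrophage and monocyte markers were called. The part of these cells in the Ptgs2 difference was not tested.

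Ptgs1, which encodes the constitutive cyclooxygenase-1 (Entrez 19224, chromosome 2, 36216742 to 36258593), had 29.0, 34.0 and 30.1 CPM in cisplatin and 35.3, 33.5 and 38.9 CPM in control. The groups overlapped, with cisplatin replicate 2 above control replicate 2. Its log2 fold change was -0.21 (SE 0.09, 95% interval -0.42 to 0.00; edgeR adjusted p = 0.0951), and it was called only when cisplatin replicate 2 was left out (-0.28; adjusted p = 0.0394; 0.0394 to 0.591 over all alternatives). Per transcript length, Ptgs1 remained the larger cyclooxygenase message in every library. Ptgs2 made up 9.32%, 11.7% and 3.04% of the summed FPKM, which is scaled to transcript length and library size, of the pair in cisplatin, against 0.788%, 1.01% and 0.752% in control. The log2 ratio of Ptgs2 to Ptgs1 FPKM averaged -3.73 ± 1.11 in cisplatin and -6.88 ± 0.23 in control (SD, n = 3 each), a difference of 3.15; the control FPKM of Ptgs2, 0.07 or 0.08, were deposited with 2 decimals, which makes these control ratios coarse.

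The 2 membrane-associated prostaglandin E synthase genes parted. Ptges encodes the inducible microsomal synthase, mPGES-1, which is often induced along with cyclooxygenase-2 (Entrez 64292, chromosome 2, 30889471 to 30931020). It had 45.6, 60.5 and 58.6 CPM in cisplatin, against 23.2, 32.1 and 27.9 CPM in control. All cisplatin libraries lay above all controls, and replicate 3, the low one for Ptgs2, lay between the other two. Ptges rose by 0.99 on the log2 scale (SE 0.15; edgeR adjusted p = 0.00130), 1.98-fold, and was called in all 13 alternatives (0.87 to 1.12).

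Ptges2, whose product was first described as a second microsomal prostaglandin E synthase (Entrez 96979, chromosome 2, 32395890 to 32402740), had 55.3, 54.0 and 55.9 CPM in cisplatin and 56.7, 63.8 and 55.1 CPM in control. These overlapped, and the difference was small with a narrow interval (log2 fold change -0.09, SE 0.08, 95% interval -0.26 to 0.09; edgeR adjusted p = 0.371), which does not show that the groups were equal. Ptges2 had the highest FPKM of the 9 genes in all 6 libraries. Ptges ranked 2 in each cisplatin library and 5 or 6 in the controls. The ratio of Ptges to Ptges2 FPKM was 0.439, 0.595 and 0.557 in cisplatin and 0.218, 0.267 and 0.268 in control.

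Ptgds encodes the lipocalin-type prostaglandin D synthase (Entrez 19215, chromosome 2, 25466709 to 25470110). It had 6.86, 9.68 and 4.62 CPM in cisplatin and 14.5, 8.88 and 12.7 CPM in control, so that cisplatin replicate 2 lay above control replicate 2. The log2 fold change was -0.76 (SE 0.28, 95% interval -1.41 to -0.11 before adjustment; edgeR adjusted p = 0.0568), just short of the threshold. It was called in 3 of 13 alternatives, among them DESeq2 (-0.77; adjusted p = 0.0179), and the adjusted p ranged from 0.0105 to 0.174 over all of them.

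Hpgd had the lowest adjusted p of the 9 genes. It encodes 15-hydroxyprostaglandin dehydrogenase, which starts the inactivation of prostaglandins (Entrez 15446, chromosome 8, 56294552 to 56321046). It had 10.1, 9.88 and 8.18 CPM in cisplatin, against 24.1, 18.7 and 23.8 CPM in control. The cisplatin libraries lay close together, all below the controls. Its log2 fold change was -1.24 (SE 0.13; edgeR adjusted p = 0.000242), and it was called in all 13 alternatives (-1.35 to -0.99).

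Because Ptges rose and Hpgd fell, their ratio within a library separated the groups widely. The ratio of Ptges to Hpgd FPKM was 2.11, 2.85 and 3.34 in cisplatin, against 0.449, 0.800 and 0.543 in control. Every cisplatin library had more Ptges than Hpgd message per length, and every control had less. On the log2 scale the ratio averaged 1.44 ± 0.34 in cisplatin and -0.79 ± 0.42 in control (SD, n = 3 each), a difference of 2.23. The ratio is set by 2 genes that were each called, so it is no further evidence, and no test was made of it.

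**Figure D2:**
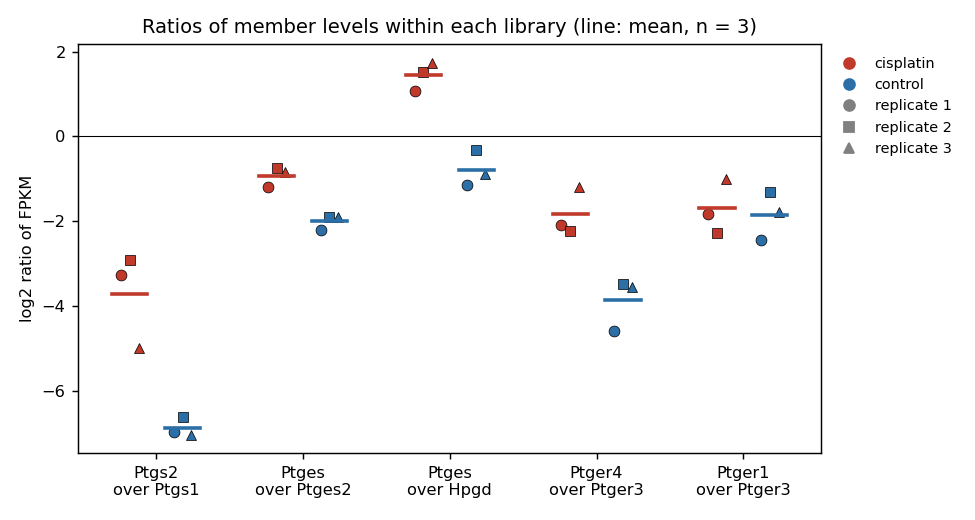
Log2 ratios of FPKM between pairs of prostaglandin genes within each library (cisplatin left and control right in each pair; symbols are replicates, lines the means of 3). The Ptges to Hpgd ratio lies above 0 in all 3 cisplatin libraries (1.08 to 1.74) and below 0 in all 3 controls (-1.15 to -0.32), whereas the Ptger1 to Ptger3 ratio overlaps.

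The receptor genes did not move alike: Ptger4 was higher, Ptger1 lower, and Ptger3 varied too much to be called. Ptger4 encodes EP4, a receptor coupled to cyclic AMP (Entrez 19219, chromosome 15, 5233399 to 5244187). It had 8.02, 9.98 and 6.82 CPM in cisplatin, against 3.30, 4.04 and 5.09 CPM in control. The lowest cisplatin library was above the highest control. The log2 fold change was 1.0 (SE 0.21; edgeR adjusted p = 0.00512), called in all 13 alternatives (0.73 to 1.17). Opposite-strand genes share 15.3% (a pseudogene) and 1.2% (Ttc33) of its exonic bases in the GENCODE M21 annotation of GRCm38.

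Ptger1 encodes EP1, a calcium-mobilizing receptor known from the collecting duct, where it is linked to lower sodium reabsorption (Entrez 19216, chromosome 8, 83666644 to 83672756). It had 13.9, 14.5 and 12.2 CPM in cisplatin, against 21.9, 25.8 and 24.5 CPM in control. No libraries overlapped, and the log2 fold change was -0.83 (SE 0.10; edgeR adjusted p = 0.000483), called in all 13 alternatives (-0.90 to -0.59). This value is uncertain as a measure of Ptger1: the sources used here give no strand setting for the counting, and reads it may share with other annotated features cannot be told apart. Its estimated counts were whole in 0 of 6 libraries, as were those of Ptges and Ptgs1; those of Ptger4 were whole in 5 and those of the other members in all 6.

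Principal cell markers of the collecting duct summed to 580 to 695 CPM in cisplatin and 769 to 794 CPM in control, and Aqp2, the most expressed of them, had 157 to 220 CPM and 204 to 221 CPM. Set against these markers, Ptger1 was at 17.5 to 23.9 CPM per 1000 CPM of markers in cisplatin and 28.4 to 32.5 in control, which did not overlap.

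Ptger3 encodes EP3, an inhibitory receptor of cyclic AMP signalling that is known from the thick ascending limb and collecting duct, where it opposes vasopressin (Entrez 19218, chromosome 3, 157566821 to 157644758). It had 21.8, 30.3 and 10.04 CPM in cisplatin, against 50.0, 28.5 and 37.8 CPM in control. Cisplatin replicate 2 lay above control replicate 2, and the spread within each group was wide. The log2 fold change of -0.90 (SE 0.40, 95% interval -1.87 to 0.07) did not pass the test (edgeR adjusted p = 0.114), nor did it in any of the 13 alternatives (0.0873 to 0.269).

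Ptger3 and Ptgds put the 6 libraries in the same order: control replicates 1 and 3, cisplatin replicate 2, control replicate 2, then cisplatin replicates 1 and 3. Within each group that is also the order of the summed markers of the thick ascending limb and macula densa. Those sums were 2130, 3327 and 1633 CPM in cisplatin and 8504, 6811 and 7538 CPM in control. The order of the cisplatin libraries was also that of Ptgs2, Ptger1, Ptger4 and Havcr1. Of the 8 thick ascending limb and macula densa markers that were tested, 6 were lower and 1 higher. Umod, the most expressed, had 1068 to 2325 CPM in cisplatin and 3948 to 4918 CPM in control. Set against these markers, Ptger3 was at 10.2, 9.11 and 6.15 CPM per 1000 CPM of markers in cisplatin and 5.88, 4.18 and 5.01 in control, and Ptgds at 3.22, 2.91 and 2.83 against 1.70, 1.30 and 1.68. Neither pair of groups overlapped, with cisplatin higher. It was the sum of the markers that lay lower by more than these 2 genes, neither of which was called. Single markers did not all do so, as Tmem158 was higher (log2 fold change 1.98). The part of these markers in the levels of Ptger3 and Ptgds was not tested.

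Ptger2, the gene of the remaining prostaglandin E2 receptor EP2, was under the count filter, with 8 estimated counts over the cisplatin libraries and 16 over the controls (normalized ratio 0.426, exact 95% counting interval 0.158 to 1.05). Per length, Ptger3 was the most abundant of the 4 receptor messages in all 6 libraries, at 65.6%, 70.3% and 51.5% of their summed FPKM in cisplatin and 81.3%, 66.8% and 72.3% in control. Ptger4 made up 15.4%, 14.97% and 22.6% in cisplatin, against 3.38%, 5.97% and 6.18% in control. The Ptger4 shares did not overlap, whereas the Ptger3 and Ptger1 shares did. The ratio of Ptger4 to Ptger3 FPKM was 0.235, 0.213 and 0.439 in cisplatin and 0.0415, 0.0894 and 0.0855 in control.

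**Figure D3:**
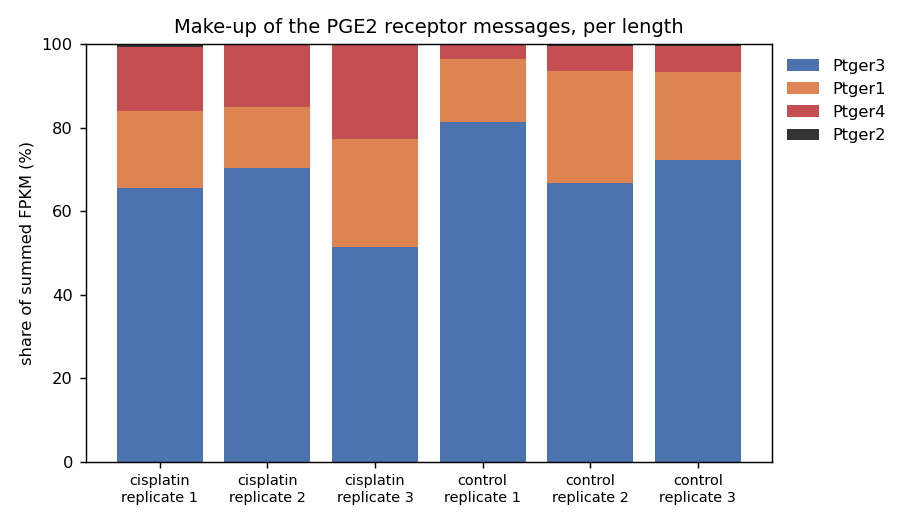
Share of each prostaglandin E2 receptor gene in the summed FPKM of the 4 receptor genes, one stacked bar per library (cisplatin left, control right). Ptger4 takes 14.97% to 22.6% in cisplatin and 3.38% to 6.18% in control; Ptger2 is barely visible, and the Ptger1 share is uncertain, as its reads may be shared.

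Per length, the order of the 9 messages was led by Ptges2 in both groups and ended with Ptgs2. In cisplatin, Ptges2 averaged 30.3 ± 0.9 FPKM, Ptges 16.0 ± 2.3, Ptger3 10.6 ± 5.4, Ptgds 9.71 ± 3.78, Ptgs1 8.01 ± 1.20 and Hpgd 5.91 ± 0.89 FPKM (SD, n = 3). There Ptger3 and Ptgds, and Ptgds and Ptgs1, differed by less than the larger SD of each pair. In control, Ptges2 averaged 29.3 ± 2.0 FPKM, Ptger3 17.96 ± 5.02, Ptgds 15.02 ± 3.74, Hpgd 12.7 ± 1.9, Ptgs1 8.63 ± 0.72 and Ptges 7.37 ± 1.11 FPKM (SD, n = 3). There Ptger3 and Ptgds, and Ptgds and Hpgd, differed by less than the larger SD of each pair. The 3 lowest were Ptger1, Ptger4 and Ptgs2, at 2.93 ± 0.46, 2.70 ± 0.61 and 0.74 ± 0.51 FPKM in cisplatin and 4.89 ± 0.55, 1.21 ± 0.28 and 0.073 ± 0.006 FPKM in control.

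**Figure D4:**
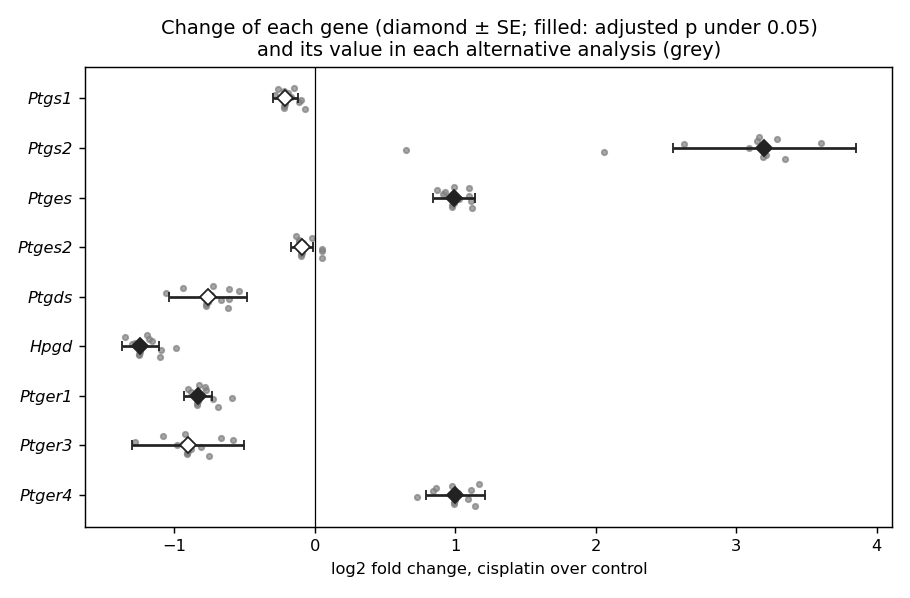
Log2 fold change of cisplatin over control for the 9 genes (diamonds with SE; filled where the edgeR adjusted p was under 0.05) and the values under 13 other analyses (grey points). Ptgs2, Ptges and Ptger4 stay above 0 and Hpgd and Ptger1 below 0 in all of them, with Ptgs2 smallest where 1 was added to the FPKM.

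Among the genes whose profile across the 6 libraries lay closest to Ptgs2 were Ankrd1 and Anxa2. Their root mean square differences from it were 0.14 and 0.17 in log2(CPM + 0.5), each gene taken relative to its own control mean. The 0.5 added exceeds the control mean of Ptgs2 (0.328 CPM), which shrinks the Ptgs2 change on this scale. In the edgeR fit the log2 fold changes were 2.22 for Ankrd1 and 2.18 for Anxa2, against 3.20 for Ptgs2. Ankrd1, a nuclear ankyrin repeat protein gene, had 12.1, 14.2 and 4.12 CPM in cisplatin and 1.95, 2.51 and 2.05 CPM in control. Anxa2, a calcium-dependent membrane-binding protein gene, had 263, 364 and 131 CPM in cisplatin and 55.4, 52.8 and 59.7 CPM in control. Cisplatin replicate 3 was the lowest cisplatin library in both, as in Ptgs2. Among those closest to Ptges, the called gene with the highest mean level, were Gsta4 and Parp10 (0.09 and 0.10), with log2 fold changes of 1.0 and 1.04.

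Of the other genes of prostanoid and eicosanoid metabolism, 52 in 5 lists were tested. Of these, 17 were higher, 12 lower and 23 not called, with a median log2 fold change of 0.07 against 0.01 over all genes. Over all genes tested, 45.4% were called, 23.1% higher and 22.2% lower, which is the background for each list below. Among other prostanoid synthases, 3 of 11 were higher and 4 lower (median -0.42). Hpgds, the hematopoietic prostaglandin D synthase, had 6.91, 7.60 and 3.89 CPM in cisplatin and 1.71, 0.80 and 1.68 CPM in control (log2 fold change 2.14; edgeR adjusted p = 0.00181). Its product makes the same prostaglandin as that of Ptgds, which did not pass the test. Tbxas1, which encodes thromboxane synthase, had 2.67, 2.58 and 2.93 CPM in cisplatin and 12.4, 15.9 and 13.5 CPM in control (-2.35; adjusted p = 1.58e-05), and Ptgis, which encodes prostacyclin synthase, fell less (-0.81; adjusted p = 0.00998). Cbr1, a carbonyl reductase gene whose product can turn prostaglandin E2 into F2-alpha, averaged 279 ± 47 CPM in cisplatin and 49.4 ± 6.3 CPM in control (2.50). Akr1b8, an aldo-keto reductase gene of a family with close copies that can share reads, averaged 64.2 ± 30.5 and 3.58 ± 0.45 CPM (4.16).

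In the list of transport and breakdown, 3 of 9 were higher and 3 lower (median -0.02). Slco2a1, which encodes the prostaglandin transporter that brings prostaglandins into cells for breakdown, had 143, 179 and 93.4 CPM in cisplatin and 50.1, 49.5 and 50.2 CPM in control (log2 fold change 1.47; edgeR adjusted p = 0.00180). Abcc4, an efflux pump gene for prostaglandins, also rose (0.92; adjusted p = 0.00936). Of the other carrier genes in the list, Slco3a1 averaged 143 ± 17 CPM in cisplatin and 232 ± 5 CPM in control and fell (-0.69; edgeR adjusted p = 0.000833), and Slco4a1 was not called (0.20; adjusted p = 0.583). Ptgr2, the reductase of a later breakdown step, fell by 0.41 on the log2 scale (adjusted p = 0.00510). Cbr3, a close relative of Cbr1, averaged 27.7 ± 3.0 CPM in cisplatin and 1.47 ± 0.39 CPM in control (4.23), and Akr1c14, a hydroxysteroid dehydrogenase gene, 36.2 ± 6.7 and 180 ± 35 CPM (-2.31).

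None of the 4 other prostanoid receptor genes tested was higher and 3 were lower (median -0.85). Ptgfr, the prostaglandin F receptor gene, had 8.58, 10.3 and 12.0 CPM in cisplatin and 17.9, 18.4 and 22.7 CPM in control (log2 fold change -0.94; edgeR adjusted p = 0.00138). Tbxa2r, the thromboxane receptor gene, fell by 0.76 on the log2 scale (adjusted p = 0.00528), with its synthase gene Tbxas1. Pparg, a nuclear receptor that a prostaglandin D2 derivative can activate, averaged 1.29 ± 0.53 CPM in cisplatin and 2.87 ± 0.59 CPM in control (-1.13; adjusted p = 0.0189). Its call was lost without cisplatin replicate 1 or control replicate 1 (0.0698 and 0.0753). Ptgir, the prostacyclin receptor gene, was not called (0.39; adjusted p = 0.113), and the prostaglandin D2 receptor genes Ptgdr and Ptgdr2 had at most 3 estimated counts in any library.

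Upstream of the cyclooxygenases, 4 of 15 phospholipase A2 and arachidonate recycling genes were higher and 1 lower (median 0.22). Pla2g4a, the cytosolic phospholipase A2 that releases arachidonic acid, had 7.32, 10.03 and 5.53 CPM in cisplatin and 11.0, 9.25 and 9.25 CPM in control and was not called (log2 fold change -0.37; edgeR adjusted p = 0.186). Pla2g2e, a secreted phospholipase A2 gene, had 163 estimated counts over the cisplatin libraries and 2 over the controls, a normalized ratio of 69.5 with an exact 95% counting interval of 18.9 to 578. It passed the filter through the cisplatin libraries alone. Acsl4, which encodes an acyl-CoA synthetase that prefers arachidonic acid, averaged 98.5 ± 9.3 CPM in cisplatin and 30.2 ± 1.2 CPM in control (1.70).

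In the lipoxygenase, leukotriene and epoxide list, which shares the substrate, 7 of 13 were higher and 1 lower (median 1.01). Alox5, which encodes the 5-lipoxygenase that starts leukotriene synthesis, had 13.5, 13.6 and 9.53 CPM in cisplatin and 0.67, 0.67 and 0.93 CPM in control (log2 fold change 4.0; edgeR adjusted p = 9.97e-06). Its partner Alox5ap was not called (0.46; adjusted p = 0.0581). Ltc4s, the leukotriene C4 synthase gene, averaged 34.7 ± 5.1 and 10.2 ± 1.1 CPM (1.76), and the leukotriene B4 receptor gene Ltb4r1 1.79 ± 0.24 and 0.53 ± 0.20 CPM (1.74). Aloxe3, the epidermal lipoxygenase gene, averaged 1.87 ± 0.91 CPM in cisplatin and 0.25 ± 0.06 CPM in control (2.90). Of the epoxide hydrolase genes, Ephx1 averaged 605 ± 37 and 79.1 ± 3.8 CPM (2.93), whereas Ephx2, which degrades arachidonic acid epoxides, fell (280 CPM in cisplatin and 506 CPM in control, -0.85). Alox15 (1.27) and Ltb4r2 (1.01) were called, with adjusted p of 0.0398 and 0.0445, and both calls were lost in DESeq2 (0.0571 and 0.0543) and without any 1 of cisplatin replicates 1 and 2 or control replicates 1 and 3.

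**Figure D5:**
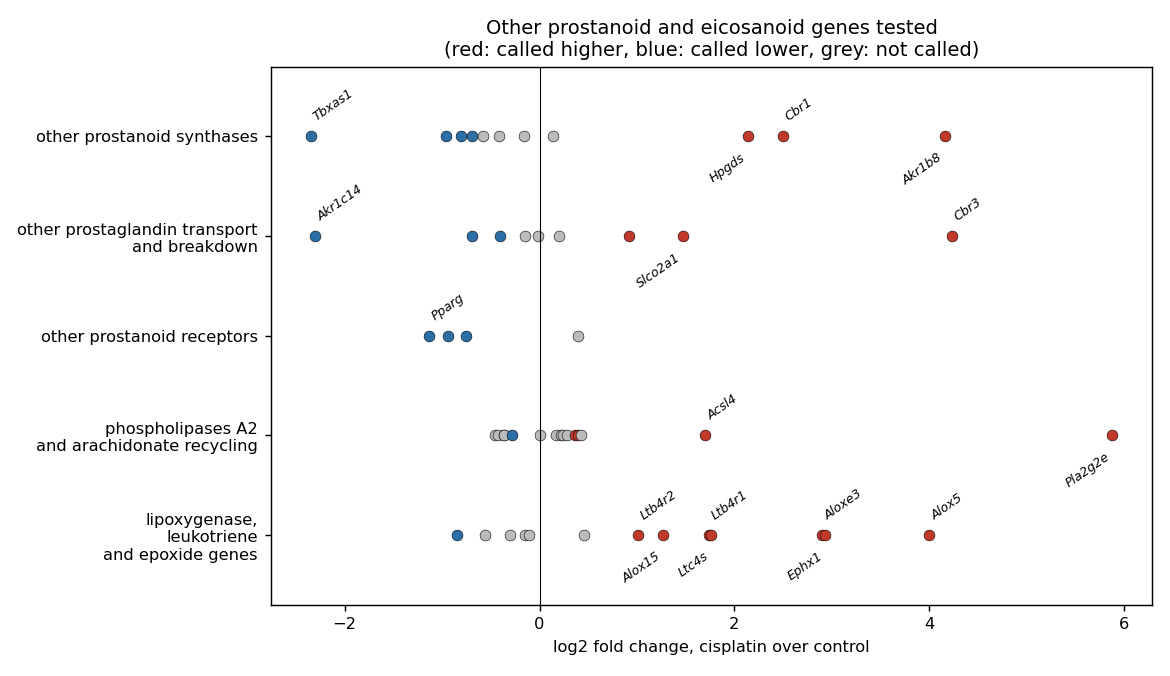
Log2 fold change of cisplatin over control for the 52 tested genes of the 5 lists of other prostanoid and eicosanoid genes (red: called higher; blue: called lower; grey: not called), with the called genes that changed at least 2-fold and reached 1 CPM named. The 17 red points extend to 5.88 (Pla2g2e), and the 12 blue ones to -2.35 (Tbxas1).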

How the data were processed

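Kidney RNA was sequenced in 3 cisplatin and 3 control samples. Per the submitters' processing notes, alignment used HISAT and the GRCm38.p6 build; the HISAT version, annotation, counting program and strand setting were not given in sources used here. Values deposited by the authors as estimated counts carry no normalization; 66.2% to 67.7% of a library's values were whole. The FPKM deposited by the authors are per kilobase and library size, and served for levels between genes. The TPM deposited by the authors served only for an alternative ratio. Columns were mapped by name, and control columns, which show only initials with a number, were taken as wild-type controls.

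Estimated counts were rounded, filtered (filterByExpr, minimum count 10, leaving 14392 genes), TMM-normalized and compared with the robust quasi-likelihood test of edgeR 4.0.16 in R 4.3.3, two-sided, with Benjamini-Hochberg adjustment over all genes; the procedure was tested on simulated data. Some genes passed the filter through 1 group alone, among them Ptgs2, Pla2g2e, Aloxe3 and S100a8 through cisplatin and Nos1 through control. Intervals use the fit's total degrees of freedom, residual plus prior. Counting intervals are exact (Clopper-Pearson) and describe counting error alone. Chi-square per degree of freedom between replicates was 8.30 to 50.5, so none was a copy. Alternatives were DESeq2 1.42.0, limma 3.58.1 on log2(FPKM + 0.1) and log2(FPKM + 1), other scalings, no filter, the replicate number as a block, and each library left out.

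The members and lists were chosen with earlier results of these data known. Of 174 list entries, 2 were not found in the table. Named were all 9 members and, of each list, called genes with a log2 fold change of at least 1 and 1 CPM or more in the higher group; of each cell type list the most expressed gene. Some genes that the rule names are not reported here. Other genes were named after their values were seen, for their known role or for their place in a list: Nos1, Tmem158, Cd68, Csf1r, Slco3a1, Slco4a1, S100a8, Camp, Havcr1, Ptgis, Abcc4, Ptgr2, Ptgfr, Tbxa2r, Ptgir, Ptgdr, Ptgdr2, Pla2g4a, Alox5ap, Ephx2 and Ptger2.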

Additional observations from a re-analysis of the deposited data

How the results depend on the processing

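The calls of Ptgs2, Ptges, Ptger4, Hpgd and Ptger1 held in all 13 alternatives. Ptgds passed in DESeq2 (-0.77); leaving out 1 library gave log2 fold changes of -1.06 to -0.54 for Ptgds and -0.28 to -0.15 for Ptgs1, which passed without cisplatin replicate 2 (both) and without control replicate 2 (Ptgds). Of the 9 genes, 5 to 7 were called when 1 library was left out, and 4 rather than 2 were lower without cisplatin replicate 2. The deviations showed no pairing by replicate number (correlations of same-numbered deviations 0.03, -0.14 and -0.14). Cisplatin replicates 2 and 3 did not correlate best with the control of their own number. With so few libraries these correlations cannot exclude a pairing, and the labels give none. With the replicate block 5561 genes were called, against 6527 without it, and the same 5 prostaglandin genes. Over all genes, leaving out 1 library gave 4767 to 7205 calls. Ptges2 changed sign with library-size scaling and on FPKM (0.05), uncalled throughout. With 5 or 6 control counts of Ptgs2 per library, depth limits the precision of its fold change.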
